A study of Mus musculus with 2 samples.

Results

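The alcohol dehydrogenase (ADH) genes of the mouse are *Adh1*, *Adh4*, *Adh5*, *Adh6a*, *Adh6b* and *Adh7*, 6 genes that follow each other on chromosome 3. Their messenger RNA was followed in kidneys with and without *Cnnm2*, a magnesium transporter gene of the distal nephron. The members were found by name: every gene probe whose gene name was one of these symbols was taken from both arrays. This gave 1 probe each for *Adh1*, *Adh4*, *Adh5*, *Adh6a* and *Adh7*, and 0 probes for *Adh6b*, so 5 of the 31821 gene names on the array were ADH genes. No probe carried the synonyms or accessions of *Adh6b* either. The set was chosen by gene name, but it was proposed with the log2 ratios of these probes on both arrays in view, so the ratios below are a description, and no p-value supports them.

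Kidneys came from 2-month-old mice. The knockout genotype was Cnnm2fl/fl;Six2-Cre and that of the control was Cnnm2+/+;Six2-Cre, so both groups carried the Cre transgene. *Six2* is active in the progenitors of the nephron, and cells of other origin in the kidney, such as those of the collecting duct and the vessels, do not descend from them. Total RNA of both genotypes was hybridized together to a pair of dual-colour arrays. Cy5 marked the knockout and Cy3 the control RNA in the first hybridization (array 1), and the labels were swapped for the second (array 2). The study's methods state that mice were matched for age and sex. The sources used here give neither the number nor the sex of the mice behind these arrays, nor whether 1 RNA extract per genotype served for both hybridizations, so the swapped hybridizations together were taken as 1 replicate per genotype. An SD over the arrays is read as covering labeling and hybridization, whether it also covers a difference between mice is not known, and no p-value between genotypes is given.

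Alcohol dehydrogenases are zinc enzymes that oxidize alcohols to aldehydes or ketones with NAD+. The class I enzyme encoded by *Adh1* oxidizes ethanol and retinol and is abundant in liver and in the proximal tubule of the mouse kidney. *Adh4* encodes the class II enzyme of the liver, *Adh7* the class IV enzyme of stomach and other surface epithelia, and *Adh5* the class III enzyme, found in most cells, which clears formaldehyde bound to glutathione and reduces S-nitrosoglutathione. *Adh6a* and *Adh6b* encode members of less well known function.

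The probes are single DNA strands of 60 bases. Their positions are given on the mm9 build as in the files, and the order along the chromosome was the same as that of the genes in the RefSeq table, which places *Adh6b* and the pseudogene *Adh6-ps1* between *Adh6a* and *Adh4*. All 5 probes matched the RefSeq table by symbol and accession. The last 30 bases of each probe are shown, since a value is only as specific as its probe, with the polyadenylation hexamer AATAAA in capitals. The sixth line is a probe named LOC635419, described in the files as similar to *Adh5*. The position given for it spans more than 60 bases, and how the probe lines up there was not analysed.
Adh7, probe at chr3:137894495-137894554: aatttttcaagaaatgaccatcaaaaccac
Adh1, probe at chr3:137952821-137952880: tttacctttcgagaaAATAAAtgaagcatt
Adh6a, probe at chr3:137994039-137994098: ctagaccatactgatAATAAAataagttgg
Adh4, probe at chr3:138093716-138093775: ttggatccgagcctgtctggatgatttatt
Adh5, probe at chr3:138118383-138118442: aaatcagaatattctttctttctcagcaaa
LOC635419, probe at chr3:138118204-138118268: catcgcgcgcaacattttaacatAATAAAa

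The hexamer AATAAA stood in the shown stretch of the *Adh1* and *Adh6a* probes, and 10.6% of the 39429 distinct probe sequences on the array held it in their last 30 bases. Over the whole probe the share was 12.6%. Its reverse complement TTTATT stood in the *Adh4* probe among the members, and in 4.03% of all probes. A match of letters is a description and not a measured processing site. Among the probes of the 5 members, the longest run of bases shared by any pair was 7. The *Adh6a* probe shared at most 15 bases in a row with any of the other 39428 probes, and that probe belonged to *Jakmip1*. Whether these probes also match the transcripts of *Adh6b* was not tested, and the exon or UTR that each probe lies in was not analysed here.

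Of the 5 members, *Adh6a* was higher in the knockout kidneys, by 2.39-fold on average on the processed signals, at a signal near background. Its mean log2 ratio of 1.26 fell to 0.43 with no background correction and to 0.14 with the normexp correction. *Adh1* and *Adh5* differed by less than 1.1-fold, and *Adh4* and *Adh7* were too dim for a ratio to be read. A gene was tested if 1 genotype gave a signal that the scanner software marked as well above background on each array, which held for 19708 genes and for 3 members, *Adh1*, *Adh5* and *Adh6a*. A call needed agreement in sign between the arrays and an average log2 ratio of 1 or more, or of -1 or less. By this rule 1 of the 3 members was called, against 0.599% of all tested genes in either direction and 0.315% higher. The rule of choice had these ratios in view, so nothing is read from the count. In RNA of whole kidneys, fewer cells of a type and less RNA per cell cannot be told apart.

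**Figure D1:**
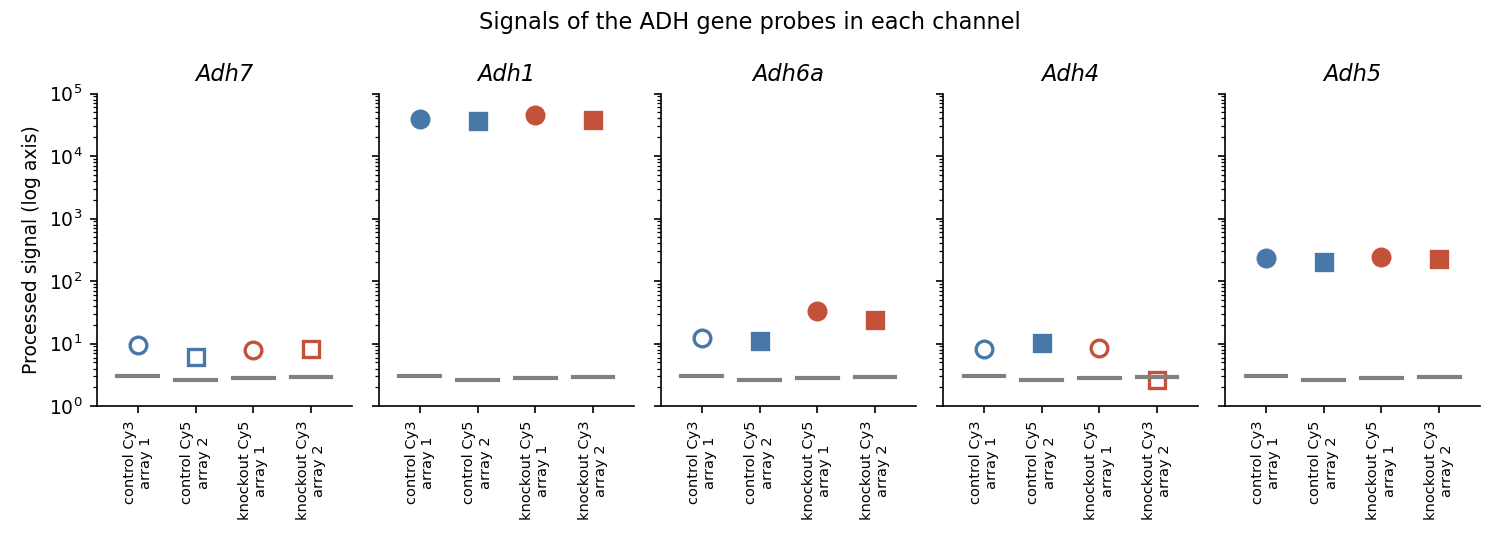
Processed signal of the probe of each ADH gene (log axis, arbitrary fluorescence units) in the control (blue) and knockout (red) channel of array 1 (circles) and array 2 (squares), filled where well above background. Grey bars mark the 95th percentile of the processed signals of the 153 negative-control spots of that channel. The *Adh6a* knockout signals of 32.7 and 23.5 lie above its control signals of 12.4 and 10.9, while the channels of *Adh1* and of *Adh5* lie close together. Levels of different probes cannot be set against each other.

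The labels were checked on *Cnnm2* itself, with log2 ratios of -2.88 and -2.46 on arrays 1 and 2, a 6.36-fold lower signal in the knockout channels on average. Whether its probe lies in the deleted part of the gene was not tested. Dye effects were large over the whole array: across the tested genes the ratios of the arrays, both turned to knockout over control, had a Pearson r of -0.51, and for 27.7% of genes both arrays gave the same sign. The labels state the dyes and *Cnnm2* was lower on each array, so the direction was kept. All 12 proximal tubule markers (such as *Slc34a1* and *Lrp2*) were tested, none of them changed by the rule of size, and their median log2 ratio was -0.08. The distal convoluted tubule list had a median of -0.67 with 3 of 6 genes called lower, against 0.284% of all tested genes.

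*Adh1*, the class I enzyme, had knockout signals, as processed by the software, of 44721 on array 1 and 37728 on array 2, next to control signals of 39647 and 36100. The knockout signal was the higher on each array, by little. The log2 ratios were 0.17 and 0.06 (mean 0.12 ± 0.08, SD of 2 arrays), a 1.09-fold difference. The scanner software gave these ratios a modelled error of 0.20 each on the log2 scale, larger than the ratios themselves. All 4 channels of *Adh1* were well above background, and its mean log2 signal of 15.27 lay above 97.8% of tested genes. *Adh1* stayed near 0 under every background correction, with means from 0.09 to 0.12. On background-subtracted signals, with each array centred on its median and no further dye normalization, it was 0.60 on array 1 and -0.42 on array 2, so that its direction followed the dyes there.

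*Adh5*, the class III enzyme, had processed signals of 246 and 222 for the knockout RNA on arrays 1 and 2, and of 233 and 201 for the control RNA. Its log2 ratios were 0.08 and 0.14 (mean 0.11 ± 0.05, SD of 2 arrays), a 1.08-fold difference that was again within the software's error of 0.21 on each array. All 4 channels were well above background. The mean ratio lay between 0.11 and 0.13 under the background corrections tried.

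Probes printed 10 times on each array gave the spread between spots at like signal. Within 0.5 log2 units of the mean signal of *Adh5*, the repeated spots of a probe had log2 ratios with a median SD of 0.06 on each array over 41 probes. Within the same distance of *Adh1* it was 0.05 on array 1 and 0.04 on array 2 over 5 probes. The ratios of *Adh1* and *Adh5* are larger than these SDs by at most a few times, and both are small beside the 2-fold rule.

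*Adh6a*, of less well known function, had processed signals of 32.7 and 23.5 for the knockout RNA on arrays 1 and 2, and of 12.4 and 10.9 for the control RNA. The knockout signal was the higher on each array, so the direction did not follow the dyes. Over all tested genes, 12.1% were higher in the knockout on both arrays. The log2 ratios were 1.40 and 1.11 (mean 1.26 ± 0.21, SD of 2 arrays), with an error by the software of 0.31 and 0.33. The dye contrast, in which a genotype difference cancels, was 0.15. The spread between spots of probes printed 10 times was larger at this signal, with a median SD of 0.32 and 0.33 on the arrays over 19 probes and a highest value of 0.66.

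These signals are close to the lower end of the array. Before background subtraction, the *Adh6a* spot of array 1 had a mean signal of 114 in the knockout channel over a local background of 45.5, and of 71.8 in the control channel over 35. On array 2 the values were 98.0 over 36 in the knockout and 74.5 over 40 in the control channel. Each of the 4 mean signals was above all 153 negative-control spots of its channel, whose highest values lay between 55.6 and 68.9. The control channel of array 1 was not marked as well above background by the software, and the other 3 channels were.

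*Adh6a* therefore entered the tested genes through its knockout channels only. Among the 317 genes tested in that way, 7.89% were called higher. Among the 787 genes not well above background in both genotypes, 6.86% were called in either direction, and in the fifth of genes with the lowest signal, which holds *Adh6a*, the share was 1.80%. Calls were thus more frequent among dim genes than among all tested genes, where the share was 0.599%.

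The size of the *Adh6a* difference depended on how the background was treated. On background-subtracted signals centred on the median it was 1.23 and 1.40 on the log2 scale. With no background correction and loess it was 0.45 and 0.40, and with normexp, which adds an offset of 50 to each channel, it was 0.21 and 0.07. The direction was the same on both arrays in each case, but the mean was at least 1 only with the processed and the background-subtracted signals. The offset is added to the background-corrected signals of both channels, not to the processed signals, and a constant added to both draws a ratio toward 0. How much of the smaller *Adh6a* ratio comes from the offset was not tested.

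**Figure D2:**
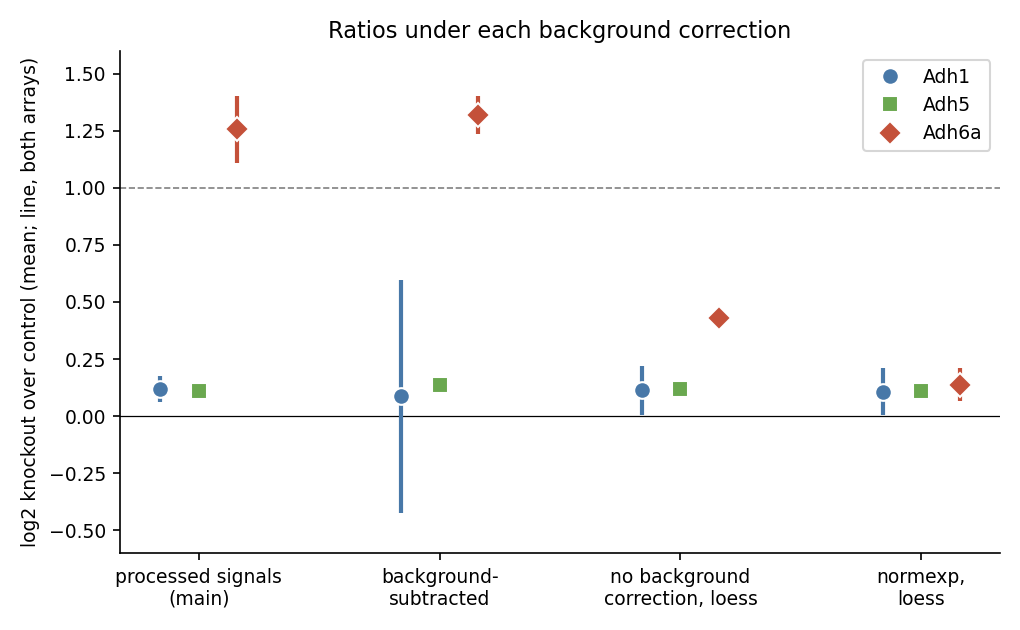
Log2 ratio of knockout over control for *Adh1* (blue circles), *Adh5* (green squares) and *Adh6a* (red diamonds) under each of 4 background corrections, with the mean as the symbol and a line from one array to the other; where no line shows, the arrays lie within the symbol. The mean of *Adh6a* was 1.26, 1.32, 0.43 and 0.14 from left to right, while *Adh1* and *Adh5* stayed between 0.09 and 0.13. The dashed line marks 2-fold.

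*Adh4*, the class II enzyme, had processed signals of 8.65 and 2.62 for the knockout RNA on arrays 1 and 2, and of 8.18 and 10.2 for the control RNA. The control channel of array 2 was the only one of the 4 that was well above background. The software replaced the knockout value of array 2 by a surrogate, its background-subtracted signal being -7.94, so the log2 ratio of -1.97 there is not a ratio of measured signals. On array 1 the log2 ratio was 0.08. *Adh4* was not tested, and its difference between the genotypes was not detectable at this signal.

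*Adh7*, the class IV enzyme, had processed signals of 7.82 and 9.51 in the knockout and control channels of array 1 and of 8.31 and 6.20 on array 2. The Cy3 signal was the higher on both arrays, so the log2 ratios of -0.28 and 0.42 changed sign with the dyes. None of its 4 channels was well above background, although each mean signal was above all 153 negative-control spots of its channel. *Adh7* was not tested either.

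**Figure D3:**
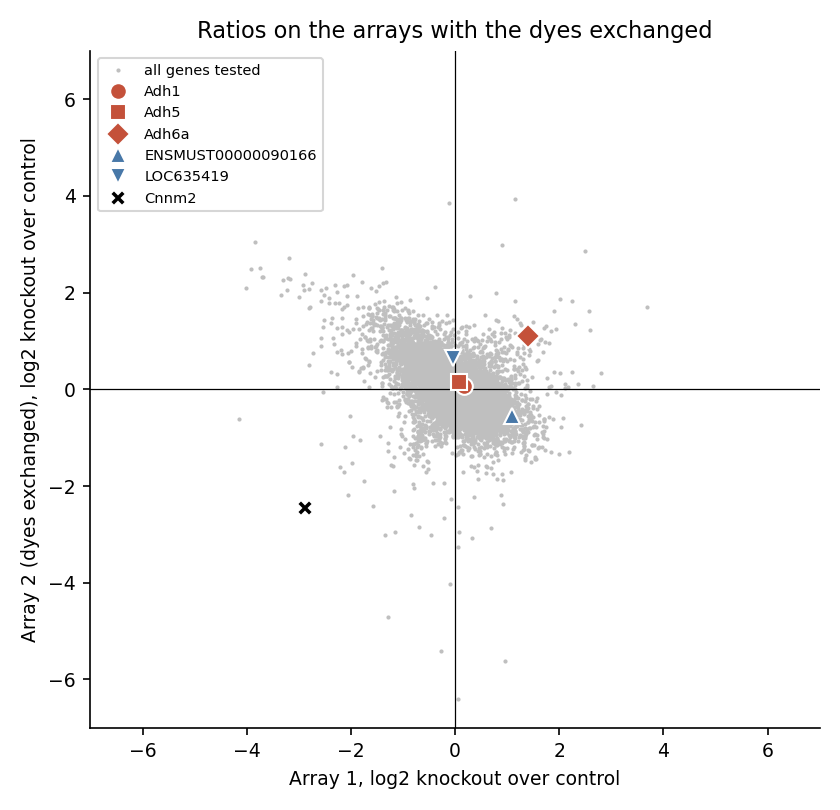
Log2 ratio of knockout over control on array 1 (x axis) and array 2 (y axis) for the 19708 tested genes (grey) with the tested ADH genes (red), the 2 other probes inside the cluster (blue) and *Cnnm2* (black). Genes whose ratio follows the dyes lie along the falling diagonal, where the grey cloud is longest; *Adh6a* lies at 1.40 and 1.11, away from it, and *Adh1* and *Adh5* lie near the origin.

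Inside the cluster, 2 probes carry names that are not ADH symbols. One, with the transcript name ENSMUST00000090166, lies 27.6 kb beyond the *Adh6a* probe at chr3:138021737-138021796, in the stretch between *Adh6a* and *Adh4*, and the files and the RefSeq table do not pair it with a gene. Its processed signals were 64.0 and 29.8 in the knockout and control channels of array 1 and 27.6 and 40.6 on array 2, all well above background. The Cy5 signal was the higher on both arrays, and the log2 ratios of 1.10 and -0.55 changed sign with the dyes. LOC635419, whose probe ends 0.114 kb before the *Adh5* probe, had log2 ratios of -0.04 and 0.65 with all 4 channels well above background. Neither probe passed the rule of size.

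The stretch from the *Adh7* to the *Adh5* probe spans 224 kb. The *Adh6a* probe lies 41.2 kb from that of *Adh1* and 99.6 kb from that of *Adh4*. Within 500 kb of the outermost member probes there were probes for 23 other gene names, of which 19 were tested, counting both probes named above. Their median log2 ratio was -0.04, beside -0.01 over all tested genes, and 5 of the 19 kept their sign between the arrays (2 higher and 3 lower), close to the share over all genes. The mean ratios ranged from -0.28 to 1.10.

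The neighbour called by the rule was 4930579F01Rik, which lies 67.3 kb before the *Adh7* probe and had log2 ratios of 0.28 and 1.93. Its value on array 1 was the smaller, and on array 2 the control channel was not well above background. The brightest probe of *Metap1*, the methionine aminopeptidase gene next to *Adh5*, was printed as 10 spots, with log2 ratios from 0.43 to 0.54 on array 1 and from -0.20 to -0.15 on array 2. The spots of this probe were close to each other within an array, and the arrays differed in sign. A dimmer *Metap1* probe had -0.17 and 0.60, the reverse sign on each array. *Mttp*, which encodes the triglyceride transfer protein on the other side of the cluster, had log2 ratios of 0.07 and -0.15. *Eif4e*, the cap-binding factor gene beyond *Metap1*, had 0.55 and -0.51 on its brightest probe.

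**Figure D4:**
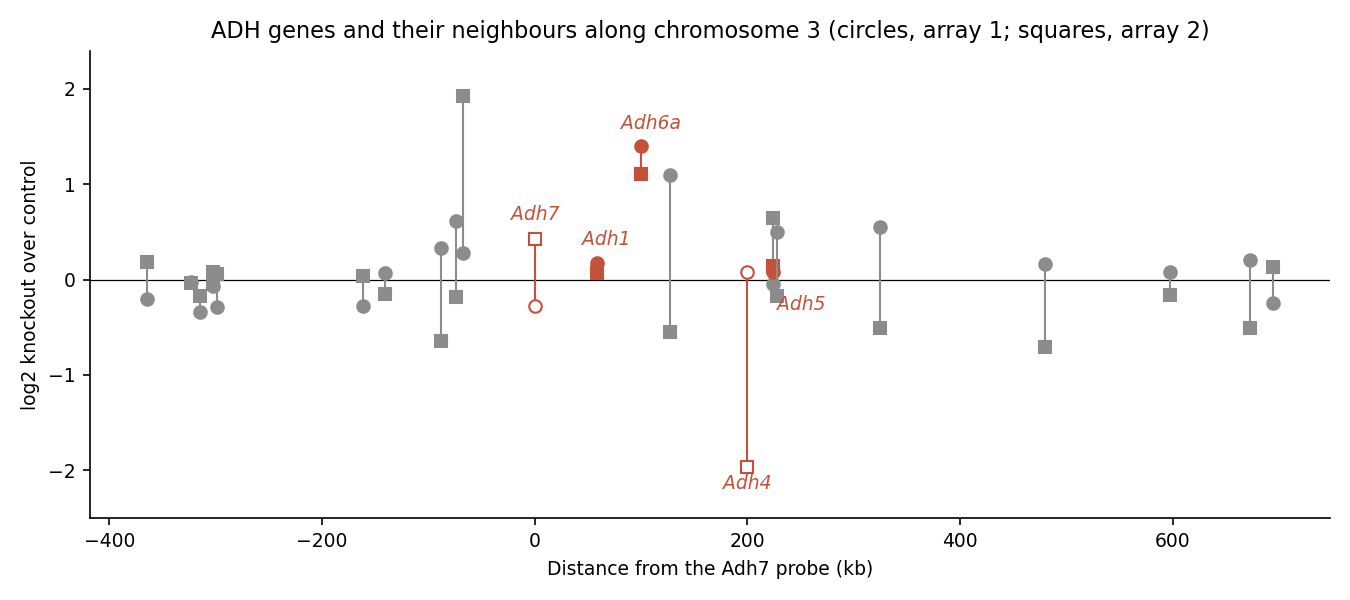
Log2 ratio of knockout over control on array 1 (circles) and array 2 (squares), joined by a line, against the distance from the *Adh7* probe in kb, for the ADH genes (red, open where not tested) and the 19 tested neighbours (grey). *Adh6a* at 99.5 kb is the member with both values above 1, while the probes on either side of it, *Adh1* at 58.3 kb and ENSMUST00000090166 at 127 kb, lie close to 0 or on both sides of it.

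The genes whose pair of log2 ratios lay nearest to that of *Adh6a* among the 19708 tested genes were *Akr1b3*, *Gulo* and *Dlgap1*, with only 2 values per gene behind the comparison. *Akr1b3*, which encodes aldose reductase, had 1.40 and 1.13. *Gulo*, which encodes the last enzyme of vitamin C synthesis, had 1.46 and 1.12, and *Dlgap1*, which encodes a scaffold protein of synapses, had 1.33 and 0.92. They differed from *Adh6a* in signal: the mean log2 signal was 13.73 for *Akr1b3* and 6.27 for *Gulo*, and 3.56 for *Dlgap1*, below the 4.16 of *Adh6a*. Under normexp the mean ratio was 1.25 for *Akr1b3*, 0.42 for *Gulo* and 0.09 for *Dlgap1*, beside 0.14 for *Adh6a*.

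Alcohol dehydrogenases hand their products to aldehyde dehydrogenases, and share substrates with retinol dehydrogenases of the short-chain family. Of the 20 aldehyde dehydrogenase genes listed, all were tested, 1 was called higher and 0 lower, with a median log2 ratio of 0.09. Over all tested genes 0.315% were called higher and 0.284% lower. The aldehyde dehydrogenase called was *Aldh1a3*, which encodes an enzyme that makes retinoic acid from retinaldehyde. Its processed signals were 604 and 149 in the knockout and control channels of array 1 and 477 and 131 on array 2, log2 ratios of 2.02 and 1.86. Under normexp its mean ratio was 1.24, still past 2-fold. Of the other 19 aldehyde dehydrogenases, 15 had opposite directions on the arrays, such as *Aldh2*, the mitochondrial enzyme of ethanol metabolism, with -0.64 and 0.63. Opposite directions were common over the array, where 27.7% of all tested genes had the same direction, so nothing is read from this count.

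Among the 16 retinol dehydrogenase genes of the short-chain family, 14 were tested and 0 were called in either direction. Their median log2 ratio was -0.01, and 13 of the 14 had opposite directions on the arrays, while 27.7% of all tested genes had the same direction. The other medium-chain dehydrogenases and reductases, relatives of the ADH genes such as *Sord* (sorbitol dehydrogenase), had 9 of 10 genes tested, 0 called and a median of 0.01. The list of other enzymes of ethanol, formaldehyde and aldehyde clearance had 13 of 14 names on the array, all tested, 0 called and a median of 0.00. It holds *Cyp2e1*, the microsomal ethanol oxidase, with log2 ratios of 0.47 and 0.00, and *Esd*, the esterase that acts after *Adh5* on formaldehyde bound to glutathione, with -0.21 and 0.14. With 1 replicate per genotype these counts describe the RNA samples.

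Marker genes of other cells were read beside *Adh6a*. Of the 10 urothelial markers, all were tested and 9 were higher on both arrays, with 0 past the rule of size and a median log2 ratio of 0.58. Of all tested genes, 12.1% were higher on both arrays. *Upk1b*, a uroplakin of the bladder and pelvis lining, had 1.13 and 0.61, and *Krt20* had 0.90 and 0.78. The summed processed signal of the list was 7695 and 6041 for the knockout RNA on arrays 1 and 2, and 5809 and 5930 for the control RNA, and 0 of its markers failed to be well above background. In such a sum the brightest probes weigh most. *Trp63*, with opposite directions on the arrays, gave 4648 and 3396 of the knockout sums and 3680 and 4134 of the control sums. The median of the list was 0.23 under normexp, 0.60 on background-subtracted signals and 0.47 with no correction. The part of urothelial cells in the *Adh6a* difference was not tested.

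Lists of genes taken to differ between the sexes were read as well. The 10 androgen-responsive kidney genes had a median log2 ratio of 0.27, with 6 higher on both arrays and 1 lower, and 0 past the rule of size. Of all tested genes, 12.1% were higher on both arrays and 27.7% kept their sign in either direction. The summed signal of these genes was 450687 and 359374 for the knockout RNA on arrays 1 and 2, and 395680 and 335418 for the control RNA. Of the 6 genes listed as female-biased in kidney 5 were tested, with a median of -0.12. On both arrays 3 were lower and 1 was higher, and 0 passed the rule of size. *Slc7a12*, an amino acid transporter gene, had log2 ratios of -1.04 and -0.92, and *Prlr*, the prolactin receptor gene, had -0.79 and -0.68. *Abcc3* was lower by less, with -0.14 and -0.06, *Cyp7b1* was higher with 0.30 and 0.21, and *Cyp4a14* changed sign with 0.14 and -0.39. Whether *Cyp7b1* is female-biased in mouse kidney was not checked, so its direction is not read by sex. The median and the summed signal of the list include it. The summed signal of this list was 35473 and 25221 for the knockout RNA on arrays 1 and 2, and 31482 and 26465 for the control RNA. Most of it came from *Cyp7b1* and *Cyp4a14*. The 3 tested Y-linked genes had opposite directions on the arrays, and *Xist* was too dim to be tested. Of the 8 liver markers 4 were tested, with a median of 0.03, and of the 9 adrenal cortex markers 4 were tested, with a median of -0.31, while *Cyp11a1*, *Cyp11b1* and *Cyp11b2* were not. Their part in the ADH values was not tested.

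**Figure D5:**
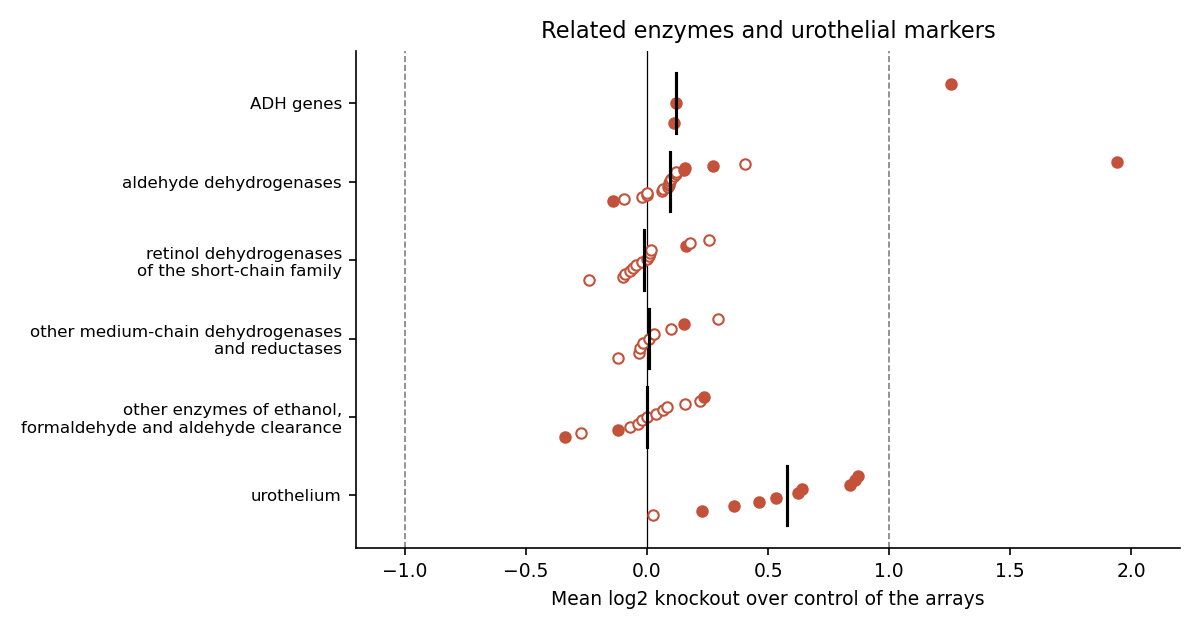
Mean log2 ratio of knockout over control for each tested gene of the ADH list, of 4 lists of related enzymes and of the urothelial markers, filled where the arrays agree in sign and open where they do not; black bars mark list medians and dashed lines 2-fold. *Adh6a* at 1.26 and *Aldh1a3* at 1.94 are the 2 enzymes past the line, and the urothelial markers lie from 0.03 to 0.87.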

How the data were processed

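Total kidney RNA of both genotypes was measured on 2 Agilent mouse arrays. Per the file headers, the authors used Agilent Feature Extraction 10.7.3.1 (the submitters' processing notes name 10.5.1.1), which gives each spot's signal intensity before and after background subtraction and a processed intensity normalized between dyes within the array. The deposited scanner files hold a log10 ratio of the red to the green channel, and the deposited matrix the log10 ratio of knockout to control. From the deposited intensities, log2 ratios of knockout to control signal were taken spot by spot, turned by the dye labels. Spots that are controls, non-uniform or outliers by the software's marks were left out, spots of a probe were averaged, and the brightest of a gene's probes was used. The rule of size, limma 3.58.1 and the t-test were run on simulated ratios. These had independent noise of smaller spread than these arrays and no dye effect, so that run cannot show how the rules behave here. R 4.3.3, Python 3.11.15, pandas 2.3.3 and numpy 2.4.6 were used. The members, the gene lists and the rules were chosen with earlier results of these data known. The genes named are every member, Cnnm2, the 3 genes nearest to the member with the largest change, genes within 500 kb, and list genes past the rule of size; the other list genes named were picked as examples after their values were seen. Of the 43020 gene spots per array, 141 were marked on array 1 and 175 on array 2. With 1 replicate per genotype, the number of arrays limits the precision.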

Additional observations from a re-analysis of the deposited data

How the results depend on the processing

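The rule of size gave 62 genes higher, 56 lower and 1 member called. Normexp with loess gave 7 higher, 8 lower and 0 members; no background correction with loess gave 12, 12 and 0; asking that all 4 channels be well above background gave 37, 27 and 0, since *Adh6a* is then not tested. With no limit on dim probes there were 232 higher and 179 lower, and with at least 2-fold on each array 28 and 20, with *Adh6a* called in both. The methods' t-test and limma take the swapped arrays as replicates, so their counts describe these hybridizations and support no member. The methods' t-test at its threshold of 0.1, together with the 2-fold rule, gave 22 higher, *Adh6a* among them, and 14 lower. After Benjamini-Hochberg adjustment it gave 0 of each and 0 members. Without the 2-fold rule, 984 genes had an unadjusted p under 0.1 and 486 under 0.05 by this test. Limma gave 0 higher, 0 lower and 0 members at its adjusted threshold, with 256 genes at an unadjusted p under 0.05. The dye contrast gave 143 higher and 341 lower with 0 members. Each array alone gave 576 to 1098 genes higher, 633 to 882 lower and 1 to 2 members, the other being *Adh4* on array 2. *Adh6a* had a mean log2 ratio of 1.26, of 0.14 with normexp and 0.43 with no correction, and of 1.11 to 1.40 on each array alone; *Adh1* and *Adh5* moved by less than the SD of the arrays under every alternative run. The background-subtracted signals, the deposited log10 ratios of the scanner and of the matrix, marked spots kept and the median over probes kept each count within 1.5 times. No paired analysis was possible because no separate samples share a replicate number between genotypes; every ratio already pairs the genotypes within an array. Background near the signal of *Adh4*, *Adh6a* and *Adh7* limits what can be read of them.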
